A study of Mus musculus with 2 samples.

Results

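The genes described here are those of the circadian clock, the set of genes Arntl, Clock, Npas2, Per1, Per2, Per3, Cry1, Cry2, Dbp and Tef, taken by gene symbol from expression tables of mouse heart. All 10 were found, each on 1 row, among 22882 gene symbols. The tables compare hearts of Med1fl/fl mice, which carry Med1 alleles flanked by loxP sites and served as controls, with hearts of csMed1-/- mice, in which a Cre recombinase driven by the α-myosin heavy chain promoter removed Med1 from cardiomyocytes and not from the other cells of the heart. Both groups carry the floxed alleles, are on the C57BL6/J background, were 23 days old, were of mixed sex and received no treatment. RNA of 5 hearts of each genotype was pooled and sequenced as 1 library, so no value below has a replicate, an error or a test. Mice were kept on a 12-h light-dark cycle, and the hour at which the hearts were taken is not given in the sources used here. Any difference in that hour between the 2 pools cannot be told apart from genotype in the ratios below.

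The clock is a feedback loop in transcription. ARNTL (also called BMAL1) pairs with CLOCK or its relative NPAS2 and switches on genes that carry the E-box motif, among them the Per and Cry genes, whose proteins return to the nucleus and block the pair. A further loop runs through the nuclear receptors REV-ERB (Nr1d1, Nr1d2) and ROR, which repress and activate Arntl through the RORE motif, and the PAR bZIP factors DBP, TEF and HLF carry the rhythm to other genes through the D-box motif. In the heart the transcripts of most of these genes are known to cycle over the day, with Arntl and Npas2 peaking at about the opposite time to Per3 and Dbp.

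Promoter sequences are shown for 4 clock genes whose windows hold an E-box or a D-box in bases that the annotation gives to no exon. A match shows the letters only, and binding there was not tested. The windows are from RefSeq (GRCm38.p6, the assembly also called mm10), which gave a window for 9 of the 10 genes, all but Per2. Each line runs 5′ to 3′ on the strand of the gene, upstream of its start site. The Per3 stretch (chr4:151044666-151044915, minus strand) and the Cry1 stretch (chr10:85185065-85185304, minus strand) lie before the gene. The Per1 stretch (chr11:69098699-69098947, plus strand) and the Tef stretch (chr15:81811164-81811413, plus strand) lie in an intron of a longer annotated form of the same gene. Capitals mark matches on either strand to the D-box (TTATGTAA or TTACGTAA), the E-box (CACGTG) or the core of the RORE (AGGTCA). Of the RORE only these core letters were matched, so a match need not be a full RORE.

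Per3: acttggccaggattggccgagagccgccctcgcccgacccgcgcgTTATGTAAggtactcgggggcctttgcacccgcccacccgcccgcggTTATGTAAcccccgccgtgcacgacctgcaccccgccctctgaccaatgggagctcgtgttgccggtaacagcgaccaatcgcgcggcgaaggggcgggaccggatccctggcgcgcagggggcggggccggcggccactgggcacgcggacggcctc

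Per1: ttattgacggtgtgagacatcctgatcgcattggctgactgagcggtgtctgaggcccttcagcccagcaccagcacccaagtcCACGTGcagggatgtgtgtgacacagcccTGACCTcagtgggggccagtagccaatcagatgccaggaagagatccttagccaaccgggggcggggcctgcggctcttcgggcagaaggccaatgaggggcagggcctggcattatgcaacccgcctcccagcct

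Cry1: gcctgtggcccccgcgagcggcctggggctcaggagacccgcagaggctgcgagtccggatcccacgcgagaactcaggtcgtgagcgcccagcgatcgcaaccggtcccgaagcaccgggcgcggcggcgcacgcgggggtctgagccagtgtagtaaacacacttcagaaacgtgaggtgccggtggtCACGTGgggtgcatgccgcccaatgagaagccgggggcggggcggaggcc

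Tef: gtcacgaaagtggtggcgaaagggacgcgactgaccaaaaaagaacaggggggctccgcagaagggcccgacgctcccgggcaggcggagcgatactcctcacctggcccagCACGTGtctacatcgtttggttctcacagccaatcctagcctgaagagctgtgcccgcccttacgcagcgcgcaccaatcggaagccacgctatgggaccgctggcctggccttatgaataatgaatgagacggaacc

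The Per3 stretch holds 2 D-boxes and no E-box. Their first bases lie 205 and 158 bases before the start site. The Per1 stretch has an E-box 166 bases and a RORE core, on the opposite strand, 137 bases before the start site. Cry1 has an E-box 60 bases before its start site, and Tef has one 138 bases before this start site and another 127 bases before its other start site. No match to these motifs or to the cyclic AMP response element (TGACGTCA) was found in the windows of Npas2, Cry2 and Dbp, which says only that these letters are not within those windows. Arntl has a RORE core 32 bases after one of its start sites, and Clock has one 119 bases before one of its start sites. Of all 32851 promoter windows, 7.15% hold the E-box, 1.06% the D-box, 16.3% the RORE core and 1.79% the cyclic AMP response element.

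**Figure D1:**
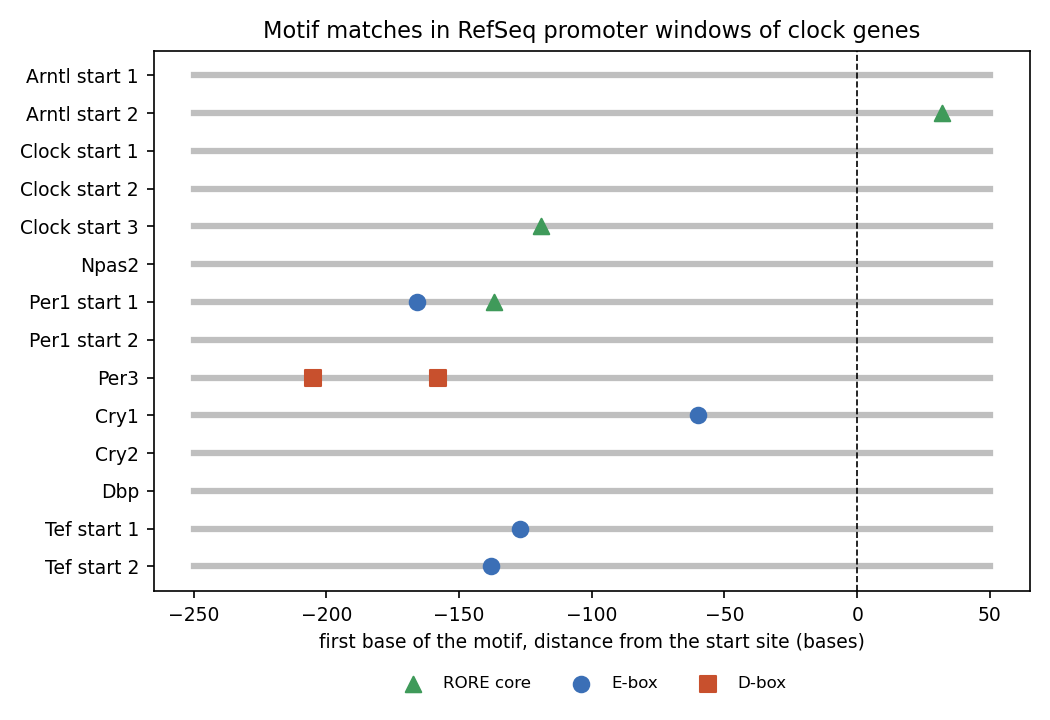
Motif matches in the RefSeq promoter windows of the clock genes. Each grey bar is a window from 250 bases before to 50 bases after a start site, drawn on the strand of the gene, and each symbol is the first base of a match. Of the 9 clock genes with a window, Per3 is the one with D-boxes, at 205 and 158 bases before its start site.

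Levels are given in FPKM, fragments scaled to transcript length and to the size of the library, which allows genes of different length to be set side by side. Genes count as tested here if neither library lists them at 0 and the higher value is no less than 1 FPKM, as held for 10489 genes. A gene was counted as past the size rule when it differed by more than 2-fold, the size that the study uses. The study also set a false discovery rate cutoff, which was not applied here. Counts given here are therefore not comparable with the study's. Med1 itself was at 3.38 FPKM in the Med1fl/fl library and at 0.412 FPKM in the csMed1-/- library (ratio 0.122). Of the 10 listed cardiomyocyte markers, 9 were measured, and their summed level was 53921 FPKM in Med1fl/fl and 31625 FPKM in csMed1-/- heart. Of the 8 of these that were tested, 5 (62.5%) were lower by more than 2-fold and none was higher, where 18.0% of all genes tested were lower and 13.6% higher. Actc1, the cardiac actin, was listed at 0 in Med1fl/fl and at 9189 FPKM in csMed1-/- heart, so a listed 0 need not mean absence, and no clock gene was listed at 0. Without Actc1 the markers summed to 53921 FPKM in Med1fl/fl and 22437 FPKM in csMed1-/- heart.

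Among the clock genes, Dbp and Per3 were lower and Arntl and Per1 were higher by more than 2-fold in csMed1-/- heart. Dbp showed the largest difference in either direction among the 9 tested clock genes, 6.98-fold lower. Arntl and Per1 were higher by 2.67-fold and 2.04-fold, and Per2, Cry1, Cry2, Tef and Npas2 stayed within 2-fold. Of the 9 tested genes, 2 were higher and 2 lower by more than 2-fold, which is 44.4%, where 31.5% of all tested genes were past 2-fold, 13.6% higher and 18.0% lower. With so few genes this share is near the background, so the count is no result about the clock genes as a set. Their median log2 ratio of csMed1-/- to Med1fl/fl was -0.13, against -0.07 over all genes tested. Arntl and Npas2 reached 1 FPKM in the csMed1-/- library alone, so they entered the count through the library in which they are high, and Clock did not enter it. Over all 10 genes, each above 0 in both libraries, the median was -0.01. Over the 7 genes at 1 FPKM or more in both libraries it was -0.52.

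**Figure D2:**
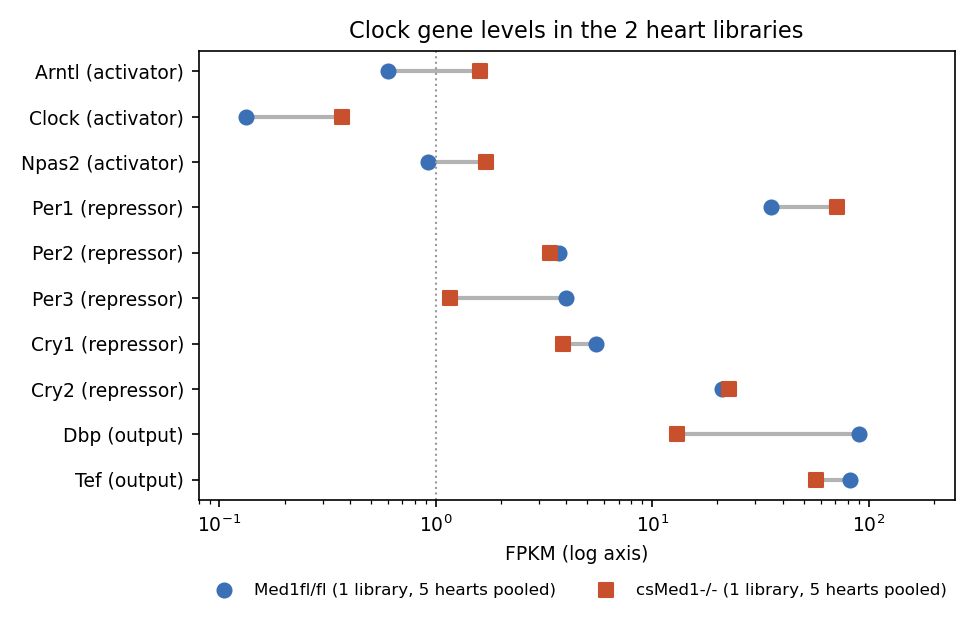
Level of each clock gene in the Med1fl/fl library (circles) and the csMed1-/- library (squares), in FPKM on a log axis, with the dotted line at 1 FPKM. Each point is 1 library of 5 pooled hearts, and no error can be drawn. Arntl, Clock, Npas2 and Per1 lie to the right in csMed1-/- heart, as does Cry2 by a little (21.1 and 22.6 FPKM). Dbp moves farthest to the left, from 90.5 to 13.0 FPKM.

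The 3 genes of the activating arm were the lowest of the set in Med1fl/fl heart, and of them only Arntl was past 2-fold, while Npas2 was within it and Clock was not tested. Arntl (chromosome 7, 113207465 to 113314126, plus strand), the bHLH-PAS factor without which the clock stops, was at 0.60 FPKM in Med1fl/fl and 1.60 FPKM in csMed1-/- heart, a log2 ratio of 1.42. That ratio was above those of 92.0% of the genes tested. Clock (chromosome 5, 76209868 to 76304792, minus strand), its partner, was at 0.132 and 0.368 FPKM, a log2 ratio of 1.48 for a gene under the minimum of 1 FPKM. Npas2 (chromosome 1, 39193731 to 39363236, plus strand), which can stand in for CLOCK, was at 0.921 and 1.71 FPKM, a log2 ratio of 0.89. The sum of the 3 genes was 1.65 FPKM in Med1fl/fl and 3.68 FPKM in csMed1-/- heart. Npas2 held 55.7% of it in Med1fl/fl and 46.5% in csMed1-/- heart, and Arntl held 36.3% and 43.5%.

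The reads behind these low values could be estimated only roughly, from the steps between low values and the annotated transcript lengths. Clock rested on about 47 to 84 reads in Med1fl/fl and 178 to 320 in csMed1-/- heart, over the range of its coding transcript lengths. Arntl rested on about 91 to 111 and 330 to 404 reads. Npas2 rested on about 248 and 628 reads. Adding 1 FPKM to both values brought Arntl to a log2 ratio of 0.70 and Clock to 0.27, which puts Arntl inside 2-fold.

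The 3 Period genes, whose proteins hold back the ARNTL pair, went separate ways. Per1 (chromosome 11, 69095217 to 69109960, plus strand), which is also induced by stress and hormone signals, was at 35.2 FPKM in Med1fl/fl and 71.7 FPKM in csMed1-/- heart. Per2 (chromosome 1, 91415982 to 91459324, minus strand) was at 3.70 and 3.37 FPKM, a ratio of 0.912. Per3 (chromosome 4, 151003652 to 151044665, minus strand), the paralogue that the core loop can do without, was at 4.01 and 1.16 FPKM, a log2 ratio of -1.79, with 6.77% of the genes tested at a lower ratio. Per1 was thus the higher and Per3 the lower of the family in csMed1-/- relative to Med1fl/fl heart. The log2 ratio of Per1, 1.03, lies just past the size rule, and it came just inside that rule when the libraries were scaled to their sums without the 100 highest genes. Summed, the family was at 43.0 FPKM in Med1fl/fl and 76.3 FPKM in csMed1-/- heart. Per1 held 82.0% of that sum in Med1fl/fl and 94.1% in csMed1-/- heart, while the share of Per3 was 9.34% and 1.52%.

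The Cryptochrome genes, which encode the stronger repressors of the ARNTL pair, stayed within 2-fold. Cry1 (chromosome 10, 85131700 to 85185064, minus strand) was at 5.51 FPKM in Med1fl/fl and 3.85 FPKM in csMed1-/- heart (ratio 0.699). Cry2 (chromosome 2, 92403646 to 92434043, minus strand) was at 21.1 and 22.6 FPKM, a ratio of 1.08. Their sum was nearly the same in both libraries, at 26.6 and 26.5 FPKM, and Cry1 held 20.7% of it in Med1fl/fl and 14.5% in csMed1-/- heart.

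The PAR bZIP genes had the largest difference of the set. Dbp (chromosome 7, 45705088 to 45710203, plus strand) was the highest clock gene in Med1fl/fl heart, at 90.5 FPKM, and the fourth highest in csMed1-/- heart, at 13.0 FPKM, a log2 ratio of -2.80. Only 2.25% of the genes tested had a lower ratio. Tef (chromosome 15, 81802421 to 81826863, plus strand), which binds the same D-box, was at 82.0 and 57.2 FPKM, a ratio of 0.698. Hlf, the third factor of this family and no member of the set, was at 4.90 and 0.856 FPKM, a log2 ratio of -2.52. Dbp and Hlf were thus both lower by more than 2-fold while Tef was not, but Hlf reached 1 FPKM in the Med1fl/fl library alone, so it entered the count through the library in which it is high. The 3 genes summed to 177 FPKM in Med1fl/fl and 71.0 FPKM in csMed1-/- heart, and the share of Tef in that sum was 46.2% and 80.6%. In the annotation, exons of Dbp share 539 bases with exons of Sphk2, a sphingosine kinase gene on the opposite strand, which was at 44.3 and 23.1 FPKM. The libraries were directional, but whether the counting used strand is not given in the sources used here. Exons of Arntl, Cry2 and Tef share 33, 295 and 193 bases with opposite-strand transcripts, and those of the other clock genes share none.

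Ratios between genes of the same library do not depend on how the libraries were scaled to each other. Dbp stood at 2.57 times the level of Per1 in Med1fl/fl heart and at 0.181 times in csMed1-/- heart. Per3 stood at 6.68 times the level of Arntl in Med1fl/fl and at 0.726 times in csMed1-/- heart. Both pairs thus changed places between the libraries. The Arntl to Dbp ratio was 0.00663 in Med1fl/fl and 0.124 in csMed1-/- heart, 18.6 times as high, the widest shift of the 12 ratios computed. The Arntl to Per1 ratio, 0.0170 and 0.0223, and the Clock to Npas2 ratio, 0.144 and 0.215, moved far less. Dbp and Tef were nearly level in Med1fl/fl heart, with a ratio of 1.10, and were at 0.226 in csMed1-/- heart. The Dbp to Hlf ratio, 18.4 and 15.1, moved least of all. Without replicates it cannot be said which neighbours in the order of levels differ beyond the spread between hearts.

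**Figure D3:**
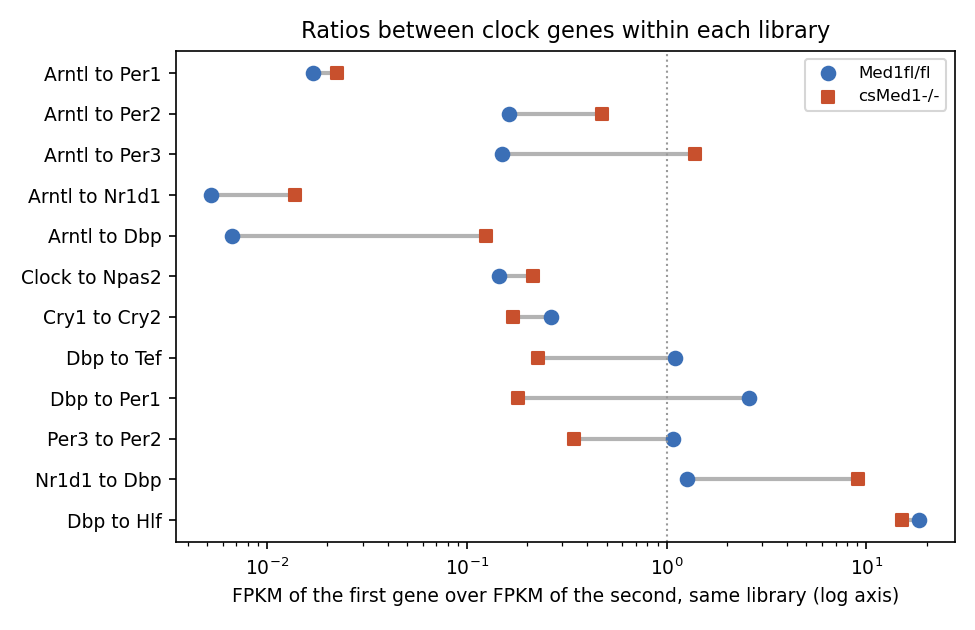
Ratios of the FPKM of 1 clock gene to that of another in the same library, on a log axis, in Med1fl/fl (circles) and csMed1-/- heart (squares), with the dotted line at equal levels. The Arntl to Dbp ratio moved most, from 0.00663 to 0.124, and the Dbp to Hlf ratio stayed between 15.1 and 18.4.

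The genes of the second loop, 11 of them described here, did not share 1 direction. Nr1d1, which encodes the repressor REV-ERBα that shuts Arntl off, was at 114 FPKM in Med1fl/fl and 117 FPKM in csMed1-/- heart, a log2 ratio of 0.03. The level of Nr1d1 was therefore 1.26 times that of Dbp in Med1fl/fl and 9.03 times in csMed1-/- heart, although both genes are known targets of the ARNTL pair. Its relative Nr1d2 was at 1.53 and 0.948 FPKM, and the ARNTL pair's other feedback repressors Bhlhe40 (24.1 and 24.3 FPKM), Bhlhe41 (8.58 and 7.57 FPKM) and Ciart (5.12 and 7.00 FPKM, under its older symbol Gm129) also stayed within 2-fold. Of the 8 tested genes, 2 were lower by more than 2-fold, Hlf and Timeless, and 1 was higher, Nfil3, which is 37.5% past 2-fold and near the 31.5% of all genes tested. Both lower genes passed the minimum in Med1fl/fl alone, and with 1 FPKM asked of both libraries 0 of 5 genes were lower. Nfil3, whose protein E4BP4 represses from the D-box that DBP activates, was at 9.41 FPKM in Med1fl/fl heart and at 2.12 times that level in csMed1-/- heart, a log2 ratio of 1.09. Timeless, better known for its part in DNA replication in mammals, was at 1.48 and 0.386 FPKM. Rora, Rorb and Arntl2 were under the minimum, at no more than 0.189 FPKM in either library. The D-box activator Dbp and the D-box repressor Nfil3 thus differed in opposite directions.

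Among genes of enzymes that modify clock proteins or mark them for breakdown, most of those tested stayed within 2-fold, as did most of all genes tested. Of 16 tested genes of 18 described, 2 were lower by more than 2-fold and none was higher. That is 12.5% past 2-fold, where 31.5% of all genes tested were. With so few genes the count is no result about the list as a set. The casein kinase genes Csnk1d (27.7 and 27.8 FPKM) and Csnk1e (15.9 and 16.5 FPKM), whose proteins phosphorylate PER, were level. The 2 highest genes of the list were Ppp1ca, a catalytic subunit of a phosphatase that acts on PER proteins, at 482 and 684 FPKM, and Csnk2b, at 253 and 329 FPKM. The 2 lower ones were Fbxw7, a ubiquitin ligase subunit that passed the minimum in Med1fl/fl alone, at 2.34 and 0.658 FPKM, and Usp2, a deubiquitinase whose own transcript cycles, at 95.3 and 44.5 FPKM. Fbxl21 and Sirt1 were under the minimum.

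Genes with a known daily rhythm downstream of the clock were mostly lower. Of 18 tested genes of 20 listed, 10 (55.6%) were lower by more than 2-fold and 2 (11.1%) were higher, with a median log2 ratio of -1.22. Over all genes tested, 18.0% were lower and 13.6% higher, with a median of -0.07. The list holds several genes of heart metabolism and conduction, and it was written with earlier results of these data known, so its direction is no independent evidence. Kcnip2, a subunit of the transient outward potassium channel, had the lowest ratio of the tested genes, with 221 FPKM in Med1fl/fl and 2.18 FPKM in csMed1-/- heart. The lipid genes Dgat2 (461 and 91.9 FPKM) and Lpin1 (43.3 and 5.04 FPKM) and the NAD synthesis gene Nampt (4.33 and 1.05 FPKM) were also lower. The others that were lower were Wee1, Ucp3, Pik3r1, Alas1, Klf9 and Usp2, at log2 ratios between -1.78 and -1.10. Pik3r1 (2.26 and 0.808 FPKM) reached 1 FPKM in the Med1fl/fl library alone, so it entered the count through the library in which it is high. With 1 FPKM asked of both libraries, 9 of 16 genes were lower. Por, the electron donor of cytochrome P450 enzymes, was higher, at 44.2 and 93.0 FPKM, and so was Tspan4, a membrane tetraspanin, at 66.2 and 182 FPKM. Klf15, Klf10, Pdk4, Tsc22d3, Coq10b and Bdh1 stayed within 2-fold. Kcnd2, a pore subunit of the same channel, at 0.677 and 0.00531 FPKM, and Avpr1a, at 0.663 and 0.261 FPKM, were under the minimum. Wee1, Klf9 and Coq10b stand on 2 rows each, which were summed. Only 1 row each of Wee1 (8.61 and 1.22 FPKM) and Klf9 (4.94 and 1.01 FPKM) was past 2-fold by itself, while the other was at 4.22 and 2.52 FPKM for Wee1 and at 2.91 and 2.11 FPKM for Klf9. The rows of Coq10b differed in direction, with 14.2 and 8.62 FPKM on one and 0.284 and 3.06 FPKM on the other.

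**Figure D4:**
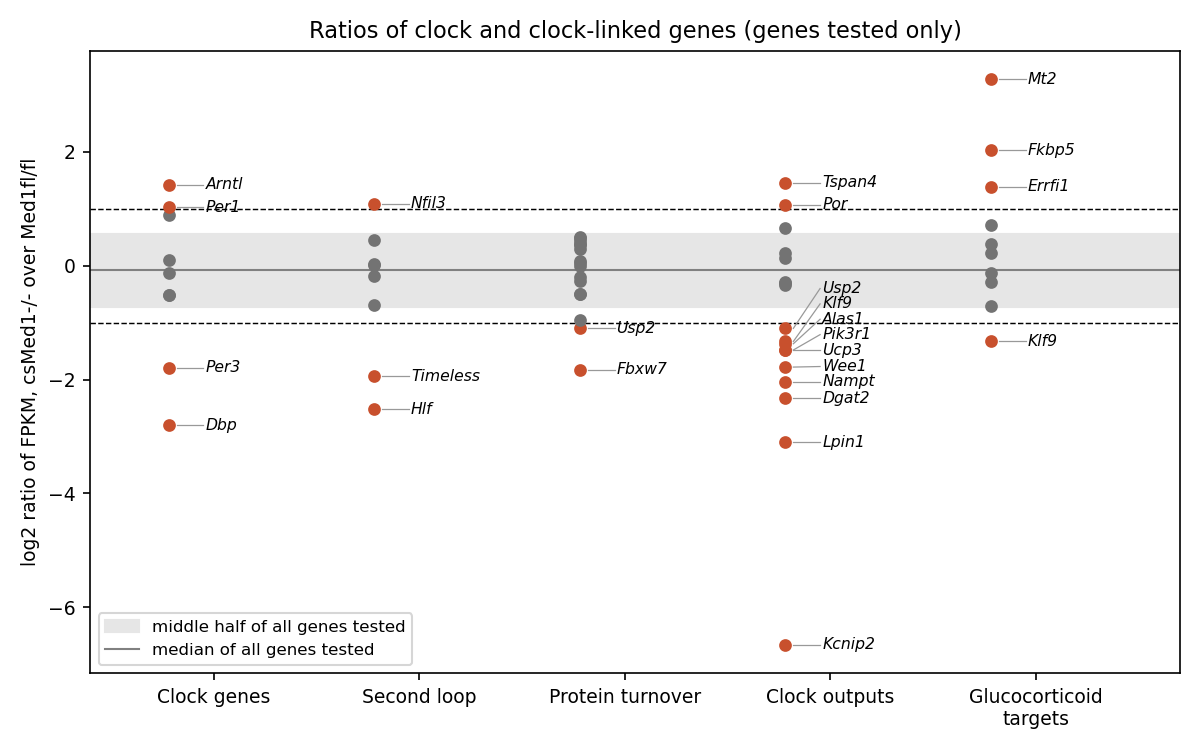
Log2 ratio of FPKM, csMed1-/- over Med1fl/fl heart, for the tested genes of 5 lists, 1 point a gene. Orange points are past 2-fold (dashed lines), the grey band is the middle 50% of all genes tested, from -0.72 to 0.55, and the grey line is their median. Clock genes lie on both sides, and 10 of 18 clock output genes lie under the lower dashed line.

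The D-boxes of Per3 shown above led to a further look, made after its values were seen, at all tested genes with a RefSeq promoter window, 7408 of 10489. Of the 65 with a D-box in a window, 15 (23.1%) were lower and 2 (3.08%) were higher by more than 2-fold, with a median log2 ratio of -0.56. Per3 and Timeless are among these 15, so the share includes the gene that prompted the look. Timeless passed the minimum in Med1fl/fl alone, and how many others of the 15 did so was not counted. Of the 7343 without one, 17.5% were lower and 13.1% higher, with a median of -0.07. Of the 876 with an E-box, 13.2% were lower and 12.2% higher, with a median of 0.03, against -0.09 without one. A lower share like that of the D-box was also seen with the RORE core, where 23.7% of 1113 genes were lower and 13.7% higher, against 16.5% and 12.9% without it, so a high share of lower genes was not particular to the D-box. With the cyclic AMP response element, 13.3% of 255 genes were lower and 16.1% higher. The clock genes with an E-box in a window, Per1, Cry1 and Tef, had log2 ratios of 1.03, -0.52 and -0.52. These shares are descriptions of 1 pair of libraries, with no test. Only letters were matched, for the RORE its core alone, and which factors bind there was not tested.

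Levels of cell type markers also differed between the libraries. The summed fibroblast markers were at 502 FPKM in Med1fl/fl and 1166 FPKM in csMed1-/- heart, with 3 of 7 tested markers higher and 1 lower by more than 2-fold. Most of that sum came from Col1a1 (129 and 502 FPKM), Col1a2 (95.7 and 314 FPKM) and Col3a1 (139 and 220 FPKM). Tcf21 was also higher, while Pdgfra, Dcn, Lum and Ddr2 were not. Over all genes tested, 13.6% were higher and 18.0% lower, and with 2 to 7 tested genes a list the marker counts are read only as values. The 7 endothelial markers summed to 507 and 403 FPKM, with 3 lower, and the 6 smooth muscle markers to 665 and 1087 FPKM, with 2 higher and 1 lower. Cnn1, at 4.32 and 622 FPKM, held most of the smooth muscle sum in csMed1-/- heart, while Acta2 was at 573 and 310 FPKM. Tagln was also higher by more than 2-fold in csMed1-/- heart, and Myh11 was the lower one. Acta2, Rgs5 (10.6 and 16.8 FPKM) and Pdgfrb (49.6 and 45.9 FPKM) stayed within 2-fold. The 7 macrophage markers summed to 333 and 382 FPKM, with 1 higher. Both tested erythroid markers, Alas2 and Slc4a1, were higher by more than 2-fold, and Slc4a1 passed the minimum in csMed1-/- alone. No listed marker that was measured, other than Actc1 in Med1fl/fl heart, was at 0. In whole hearts, fewer cells of a type and less RNA per cell cannot be told apart, and the part of these marker levels in the clock gene ratios was not tested.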

How the data were processed

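RNA of 5 hearts per genotype was pooled, and polyadenylated RNA was made into 1 directional library each and read as single ends of 50 bp. TopHat (2.0.8b) was used by the authors for alignment to mm10, and the FPKM values of annotated genes that they deposited come from Cufflinks and Cuffdiff (2.1.1). The submitters' processing notes also name STAR and DESeq2, with no role given, and the library scaling is not given in the sources used here. Each file has 23424 rows with 22882 gene symbols, and the values of 412 symbols on several rows were summed. The ratio of csMed1-/- to Med1fl/fl FPKM was computed with no pseudocount, and a gene was tested if neither value was 0 and the higher was no less than 1 FPKM. The paper names a false discovery rate cutoff in Cuffdiff. With 1 library per genotype the spread between hearts could not be estimated, and no test was run here.

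The files give no read counts. The commonest ratio among 2461 rows at or below 0.15 FPKM was 0.722, with 79 rows in its bin, and was taken to be that of 1 read in each library. On that reading csMed1-/- was sequenced about 1.39 times as deeply as Med1fl/fl, but any scaling between the libraries would also be in this ratio. With transcript lengths from GENCODE M21 (GRCm38), less 200 bases for 1 fragment, 1 read was worth about 0.015 and 0.011 FPKM on 1 kb in Med1fl/fl and csMed1-/-. These are estimates, so no counting interval is given.

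Named genes were all clock genes, all reported genes of the second loop list, Med1 and, of the other lists, those past 2-fold and the 2 highest by mean FPKM. Other names, 5 of the ratios within a library (Dbp with Tef, Per1, Nr1d1 and Hlf, and Per3 with Per2) and the split of genes by motif were added after values were seen. The members and lists were chosen with earlier results of these data known. Promoter windows, from 250 bases before to 50 after a start site, came from RefSeq (GRCm38.p6), matched by symbol, and positions and exon overlaps from GENCODE M21. Myh6 and the globin genes of the marker lists were not analysed here, and 1 gene each of the second loop and protein turnover lists is not reported here or counted. Python 3.11.15, numpy 2.4.6, pandas 2.3.3 and matplotlib 3.10.9 were used, and the calculation was tested on simulated data.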

Additional observations from a re-analysis of the deposited data

How the results depend on the processing

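No paired analysis was possible because each genotype has 1 library. A count was taken as moved when it changed by more than 1.5 times. A log2 ratio or a median of them was taken as moved when it shifted by more than 0.58, which is 1.5-fold on the plain scale. The log2 ratios of the clock genes kept their direction under pseudocounts of 0.1 and 1 FPKM, 3 other scalings of the libraries and the use of the highest row of a symbol. Only those of Arntl and Clock moved, both with 1 FPKM added. The ranges were -2.83 to -2.71 for Dbp, -1.82 to -1.21 for Per3, 0.70 to 1.49 for Arntl and 0.50 to 0.97 for Npas2, and Per1 reached at most 1.10. The 4 clock genes past 2-fold became 2 of 4 tested at 10 FPKM or more, and 1 of 9, Dbp, at a 4-fold rule. The 3 second loop genes became 6 without the filter, 1 at 1 FPKM or more in both libraries, 1 at 10 FPKM or more and 1 at 4-fold. The 2 turnover genes became 4, 1, 1 and 0 under the same settings. At 4-fold the 12 output genes became 4 and the 4 glucocorticoid target genes became 2. The 3309 genes past 2-fold became 5686 without the filter, 1706 at 10 FPKM or more, 5608 at 1.5-fold and 992 at 4-fold. The other 59 counts and medians stayed within these limits. The median log2 ratio of the clock genes was farthest from its main value, -0.13, at -0.52 over the 7 genes with 1 FPKM or more in both libraries. Cause was not tested, but the filters and size rules change which genes can be counted. The fewest estimated reads were behind Clock, about 47 to 84 in Med1fl/fl heart, and what depth adds to any ratio was not tested.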

Other observations

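Per1 is also known as a target of the glucocorticoid receptor, so a list of 10 genes that glucocorticoids induce in many tissues was read beside it. Of these genes, 3 were higher and 1 was lower by more than 2-fold in csMed1-/- heart, with a median log2 ratio of 0.31, and 6 stayed within 2-fold. That is 4 of 10 past 2-fold, near the 31.5% of all genes tested, of which 13.6% were higher and 18.0% lower. Fkbp5, a chaperone partner that damps the receptor, was at 6.97 FPKM in Med1fl/fl and 28.4 FPKM in csMed1-/- heart. Errfi1, an inhibitor of EGF receptor signalling, was at 6.12 and 16.1 FPKM. Mt2, a metal-binding metallothionein, was at 92.9 and 900 FPKM, while its neighbour Mt1 was at 1614 and 1474 FPKM. Klf9 was lower, at 7.85 and 3.12 FPKM, and Tsc22d3 (110 and 129 FPKM) and Sgk1 (34.8 and 45.2 FPKM) stayed within 2-fold. The list as a whole therefore did not share 1 direction. No replicates exist for any of these values.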
